A study of Mus musculus with 28 samples.

Results

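The data describe 8 genes, Msln, Wt1, Upk3b, Lrrn4, Krt8, Krt18, Krt19 and Pdpn, chosen by name as markers of mesothelial and mesothelioma cells, among 55341 gene names in the deposited counts. All 8 were found in both count matrices. RNA was measured by bulk RNAseq in 28 whole tumors grown subcutaneously in female BALB/c mice from AB1-HA, a single mouse mesothelioma line that carries the influenza hemagglutinin gene. The groups were PBS (4 tumors), ICB (5), 5-FU (5), Cisplatin (4), 5-FU+ICB (5) and Cisplatin+ICB (5). Treatment began when tumors measured 20 to 25 mm2, and tumors were taken at day 7. Mice on 5-FU received 75 mg/kg into a vein. The dose of cisplatin, into the peritoneum, was 6 mg/kg. ICB, immune checkpoint blockade, was anti-CTLA-4 with anti-PD-L1, each at 100 µg, followed by 2 more doses of anti-PD-L1 given 2 days apart. The tumors also hold host stroma, vessels and leukocytes, and no sample of the cell line alone was analysed here, so the cells that carry a transcript were not measured.

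Mesothelial cells line the body cavities and combine a keratin skeleton with mesenchymal features. Msln encodes mesothelin, a surface glycoprotein that binds the mucin MUC16 and is a target of antibody therapy in mesothelioma. Pdpn encodes podoplanin, a mucin-type surface protein that is also made by lymphatic endothelium and activated fibroblasts. Wt1 encodes a zinc finger transcription factor of the mesothelium and kidney. Upk3b (a uroplakin) and Lrrn4 (a leucine-rich repeat membrane protein) mark normal mesothelium. Krt8 is the type II keratin that pairs with the type I keratins Krt18 and Krt19 to form the filaments of simple epithelia.

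Library totals ran from 23541733 to 33950805 counts, with a median of 28797552. Levels are in CPM (counts scaled to library size) adjusted by TMM over all 28 tumors, and 3 counts, taken as the floor of detection, corresponded to between 0.0822 and 0.159 CPM. The floor covers counting error only, and the intervals and standard errors (SE) of fold changes include the spread between tumors. A gene was called when its Benjamini-Hochberg adjusted p-value from edgeR's quasi-likelihood test was under 0.05 and its absolute log2 fold change over 0.5. A pair of tumors stood apart. 5-FU+ICB replicate 5 and Cisplatin+ICB replicate 1 had a median correlation of 0.853 and 0.851 with all tumors, and every other tumor had at least 0.931. Many of the results are also given without them.

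Of the 8 genes, Msln and Pdpn were abundant in nearly every tumor, Krt8, Krt19 and Wt1 were low but passed the filter on low counts, and Upk3b, Lrrn4 and Krt18 did not pass it. Upk3b had at most 2 counts in any tumor and was at or under the floor in all 28. Lrrn4 had between 0 and 13 counts. Per kilobase of exon, which allows levels of different genes to be compared, the median level over the tumors was 55.3 CPM for Pdpn, 46.2 for Msln, 0.534 for Krt8, 0.185 for Krt19, 0.0964 for Wt1, 0.0723 for Krt18, 0.0272 for Lrrn4 and 0 for Upk3b. The markers of normal mesothelium Upk3b and Lrrn4 were thus at or near the floor, and Pdpn and Msln were well above it. Among 10 other mesothelial genes, 5 passed the filter in the 5-FU matrix, Upk1b was at or under the floor in all tumors, and the most abundant were Efemp1, a matrix glycoprotein, and Aldh1a2, a retinoic acid synthesis enzyme.

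**Figure D1:**
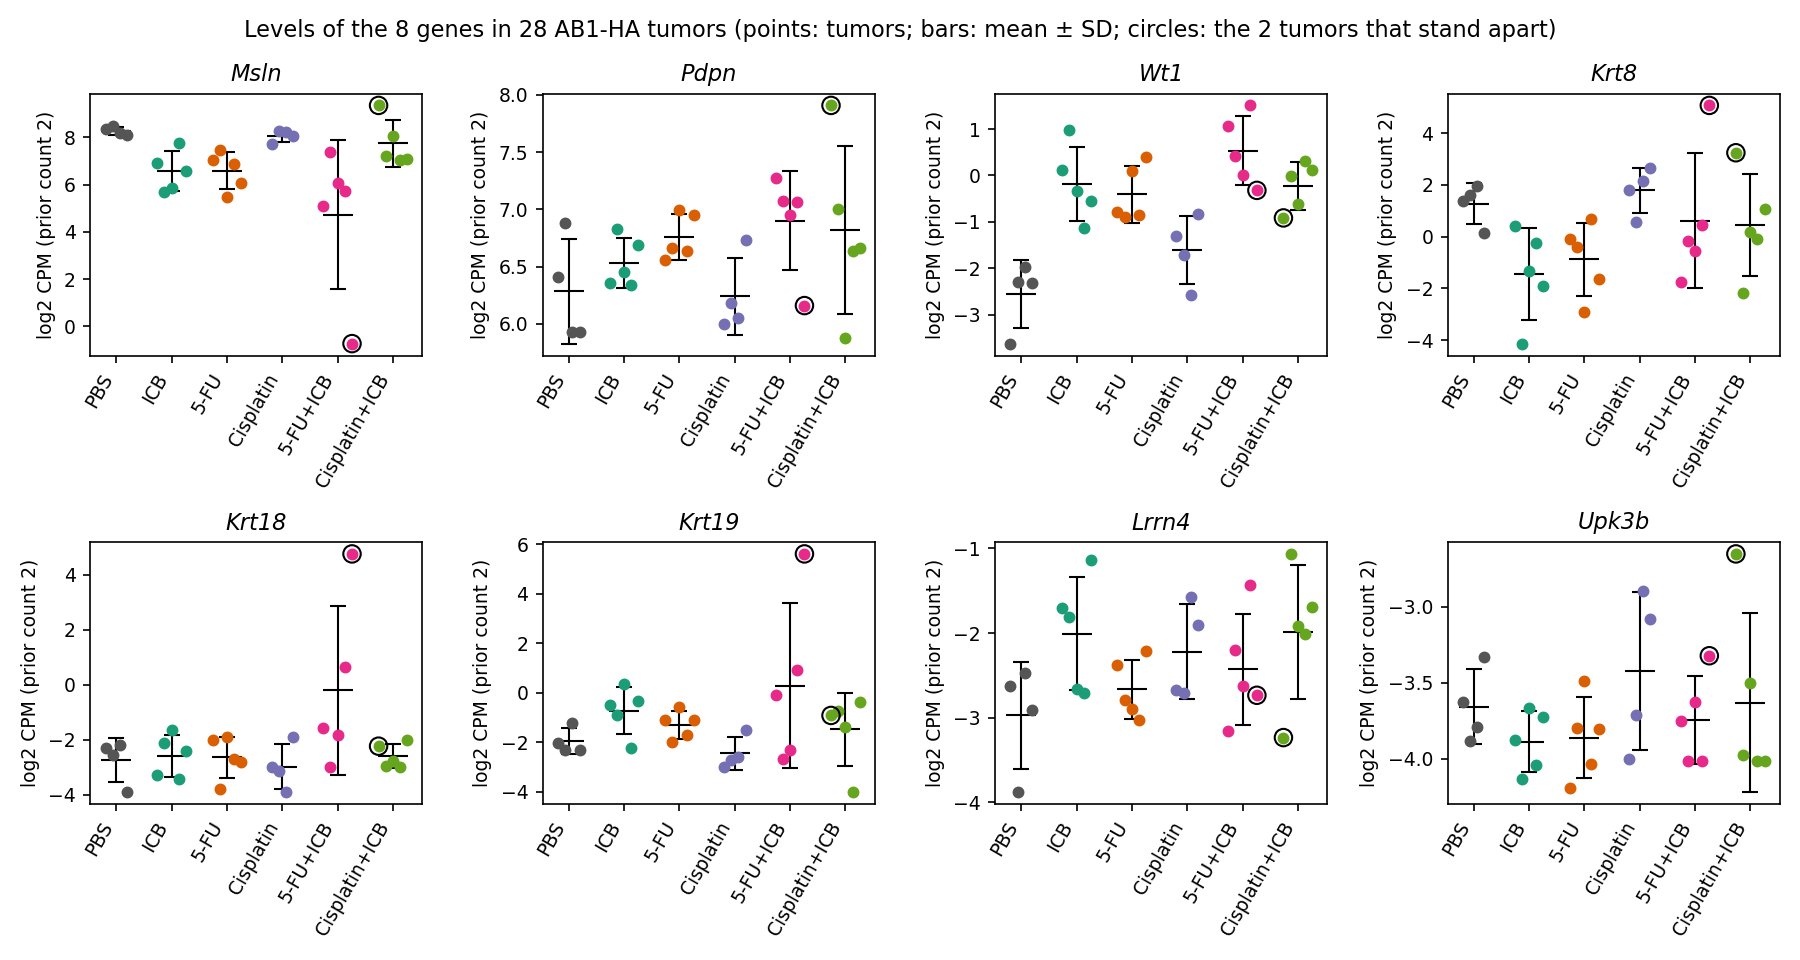
Levels of the 8 genes as log2 CPM (prior count 2, vertical axis) in the 6 groups (horizontal axis). Points are tumors, bars are the mean and SD, and circles mark 5-FU+ICB replicate 5 and Cisplatin+ICB replicate 1. Msln was lowest, at 0.5001 CPM, and Krt8, Krt18 and Krt19 were highest in 5-FU+ICB replicate 5.

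Krt8 and Krt18, whose proteins pair in the filament, lie head to head on mouse chromosome 15, with starts 23698 bases apart. Their promoters are shown because both genes were highest in the same tumor. Each sequence runs from 250 bases before to 50 bases after the start site and is credited to RefSeq on GRCm38.p6. Capitals mark the letters TATAAA, the TATA box searched on both strands, which 13.6% of 32851 promoters of this length hold. The letters GGGCGG, the GC box, are held by 35.7% and by neither promoter here. Krt8 (chr15:102004293-102004592, minus strand) holds TATAAA near the RefSeq start and Krt18 (chr15:102027966-102028265, plus strand) does not hold it. The GENCODE start of Krt8, used for the distance above, lies upstream of that RefSeq start, so the match lies inside the GENCODE gene.
Krt8 promoter: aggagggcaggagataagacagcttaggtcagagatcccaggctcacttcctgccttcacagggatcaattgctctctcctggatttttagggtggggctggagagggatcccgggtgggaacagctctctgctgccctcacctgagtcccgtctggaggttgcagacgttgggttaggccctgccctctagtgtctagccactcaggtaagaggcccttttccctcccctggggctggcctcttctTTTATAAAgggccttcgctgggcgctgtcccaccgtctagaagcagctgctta
Krt18 promoter: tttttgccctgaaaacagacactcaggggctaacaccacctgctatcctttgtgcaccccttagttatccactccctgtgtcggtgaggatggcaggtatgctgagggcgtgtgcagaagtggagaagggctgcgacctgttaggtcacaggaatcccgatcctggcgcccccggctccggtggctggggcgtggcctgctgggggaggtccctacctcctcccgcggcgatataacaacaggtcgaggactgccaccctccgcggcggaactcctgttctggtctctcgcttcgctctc
A match is a description of letters, and its absence says only that these letters are not in the window. In GENCODE M21 on GRCm38 the annotated genes are Msln (chr17:25748613-25754378, minus strand), Wt1 (chr2:105126529-105173616, plus), Pdpn (chr4:143267431-143299564, minus), Krt19 (chr11:100140810-100148665, minus), Krt8 (chr15:101996698-102004482, minus) and Krt18 (chr15:102028180-102032027, plus). Of 31-base stretches of the exons, 36.1% were shared with other genes for Krt8, mostly the pseudogene Krt8-ps, and 11.4% for Krt18. Krt8-ps was listed at 0 counts in every tumor. How the counting tool divided reads between these copies was not tested.

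The group means of Msln were 311 ± 38.7 CPM (SD, n = 4) in PBS, 270.1 ± 42.9 (n = 4) in Cisplatin, 267 ± 224 (n = 5) in Cisplatin+ICB, 109 ± 66.8 (n = 5) in ICB, 108 ± 52.7 (n = 5) in 5-FU and 64.6 ± 62.4 (n = 5) in 5-FU+ICB. By replicate, the PBS tumors had 327, 358, 289 and 271 CPM. The ICB tumors had 122, 52.0, 57.5, 217 and 95.5 CPM. The 5-FU tumors had 133, 177, 45.0, 118 and 66.7 CPM.
Every ICB and every 5-FU tumor was thus lower than every PBS tumor. The Cisplatin tumors had 212, 308, 297 and 264 CPM. The 5-FU+ICB tumors had 34.4, 167, 67.8, 53.4 and 0.5001 CPM, the last being 10 counts in replicate 5. The Cisplatin+ICB tumors had 654, 147, 266, 130.5 and 137 CPM, so that replicate 1 was the highest of all 28 and the others lay below the lowest PBS tumor. Neighbours in the order of means overlapped in their ranges, and of these only ICB against 5-FU was not tested; the others were not called.

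Wt1 was called higher than PBS in every treated group but Cisplatin. In PBS it was close to the floor, at 0, 0.136, 0.181 and 0.133 CPM (0, 4, 5 and 4 counts). The ICB tumors had 1.02, 1.91, 0.711, 0.396 and 0.605 CPM. The 5-FU tumors had 0.521, 0.467, 0.980, 0.489 and 1.25 CPM. None of these overlapped with PBS. The Cisplatin tumors had 0.344, 0.229, 0.101 and 0.503 CPM and did overlap. The 5-FU+ICB tumors had 2.01, 1.27, 0.932, 2.78 and 0.700 CPM. The Cisplatin+ICB tumors had 0.424, 0.925, 0.589, 1.18 and 1.02 CPM. The highest tumor had 90 counts, so all levels of Wt1 rest on few reads.

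Pdpn varied less, with group means from 77.1 ± 19.6 CPM (SD, n = 4) in Cisplatin to 126 ± 68.7 (n = 5) in Cisplatin+ICB. Its PBS tumors had 85.0, 118, 60.6 and 60.7 CPM. The 5-FU+ICB tumors had 155, 134, 123, 133 and 71.4 CPM. All but replicate 5 were above the highest PBS tumor. The highest of all, at 240.2 CPM, was Cisplatin+ICB replicate 1.

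The keratins were low in most tumors and high in 1. Krt8 was at 2.51, 2.98, 3.76 and 1.03 CPM in PBS and at 3.44, 1.41, 4.33 and 6.16 CPM in Cisplatin. It was at 1.26, 0, 0.316, 0.792 and 0.189 CPM in ICB and at 0.877, 0.683, 0.0445, 1.53 and 0.251 CPM in 5-FU, lower on average but overlapping with PBS. In 5-FU+ICB it was at 0.223, 0.837, 0.608, 1.30 and 33.4 CPM. In Cisplatin+ICB it was at 9.33, 0.159, 1.06, 0.866 and 2.04 CPM. The 2 highest values of Krt8 thus came from the 2 tumors that stood apart.
Krt18 had at most 7 counts in 26 tumors. It had 49 counts (1.52 CPM) in 5-FU+ICB replicate 4 and 543 counts (27.2 CPM) in replicate 5. Krt19 was at 0.162, 0.136, 0.361 and 0.133 CPM in PBS and at 0.856, 0.0930, 0.122, 1.86 and 48.9 CPM in 5-FU+ICB, where replicate 5 had 978 counts. Outside 5-FU+ICB the highest Krt19 level was 1.18 CPM, in an ICB tumor.

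All comparisons with PBS share the same PBS tumors. For ICB against PBS, 1 of the 5 members tested was called, against 37.8% of all genes tested. Wt1 was higher in ICB by 3.03 ± 0.67 on the log2 scale (SE), 8.19-fold, with an adjusted p = 0.00226. Msln was lower by a log2 fold change of -1.51 ± 0.76 and not called (adjusted p = 0.117). The ranges did not overlap, which held for 37.4% of all genes. The spread of Msln in this fit includes 5-FU+ICB replicate 5. Without that tumor the log2 fold change was -1.50 ± 0.46 (adjusted p = 0.0144) and Krt8 was also called lower, at -2.29 ± 0.84 (adjusted p = 0.0333).

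For 5-FU against PBS, 1 of 5 was called, against 23% of all genes tested. Wt1 was higher by 2.67 ± 0.66, 6.38-fold (adjusted p = 0.0109). Msln was at -1.54 ± 0.76 (adjusted p = 0.136), not called, and at -1.54 ± 0.46 (adjusted p = 0.0217) without 5-FU+ICB replicate 5. Here too the ranges of Msln did not overlap, against 27% of genes.

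For cisplatin against PBS, 0 of 5 members were called by edgeR, against 0% of all genes tested. At an unadjusted p under 0.05 there were 0 members and 317 of all 17819 genes (1.78%), and DESeq2 called 0 members and 4 genes. Msln was at -0.20, with a 95% interval from -1.23 to 0.82, and Wt1 at 1.35, with an interval from -0.08 to 2.78. The interval of Wt1 holds the estimate for 5-FU (2.67) but not those for ICB (3.03), 5-FU+ICB (3.75) or Cisplatin+ICB (2.83).

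For 5-FU+ICB against PBS, 4 of 5 were called, against 40.7% of all genes tested. Wt1 was higher by 3.75 ± 0.68, 13.5-fold (adjusted p = 0.000916), and its ranges did not overlap, against 25.5% of genes. Msln was lower at -2.28 ± 0.77, a 4.85-fold difference (adjusted p = 0.0238), again with no overlap. Krt19 was higher by 5.74 ± 1.52 (adjusted p = 0.00662), with overlapping ranges. Pdpn was higher by 0.61 ± 0.23, 1.52-fold (adjusted p = 0.0429), with overlapping ranges.
Without 5-FU+ICB replicate 5, Msln stayed called at -1.96 ± 0.51 (adjusted p = 0.00742) and Pdpn at 0.75 ± 0.21 (adjusted p = 0.0120), and Krt19 was no longer called, at 1.95 ± 0.79 (adjusted p = 0.0576). DESeq2 also called 4 members, with Krt18 in place of Krt19, and 7923 of 22865 genes. It gave Krt19 no adjusted p-value in this comparison. With the replicate number as a block Krt19 was not called (3.01, adjusted p = 0.0894). Krt8 was at 1.54 ± 1.23 with all tumors and at -1.75 ± 0.88 without replicate 5, called in neither. Msln was no longer called without PBS replicate 2 (-2.17, adjusted p = 0.0528) or without 5-FU+ICB replicate 1 (-2.12, adjusted p = 0.0565). Pdpn was not called in 8 of the 19 fits that each left out 1 tumor, with log2 fold changes from 0.46 to 0.88 over all 19. Those 8 left out PBS replicate 1, 3 or 4, ICB replicate 5, or 5-FU+ICB replicate 1, 2, 3 or 4.

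For Cisplatin+ICB against PBS, 1 of 5 was called, against 6.1% of all genes tested. Wt1 was higher by 2.83 ± 0.65, 7.13-fold (adjusted p = 0.0218), with no overlap, against 8.12% of genes. Without Cisplatin+ICB replicate 1, 35.3% of all genes were called, and of the members again Wt1 (3.07, adjusted p = 0.00356). It was not called without PBS replicate 1, 3 or 4 or Cisplatin+ICB replicate 2 or 4, where its adjusted p lay between 0.0516 and 0.0780 and its log2 fold change between 2.45 and 3.12. Nor was Wt1 called with the replicate number as a block (adjusted p = 0.0735) or with only the groups compared (adjusted p = 0.0972). Msln was at -0.21 ± 0.46, and at -0.82 ± 0.35 without Cisplatin+ICB replicate 1, called in neither. Without that tumor Krt8 went from 0.06 to -1.24 and Pdpn from 0.65 to 0.32, called in neither.

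**Figure D2:**
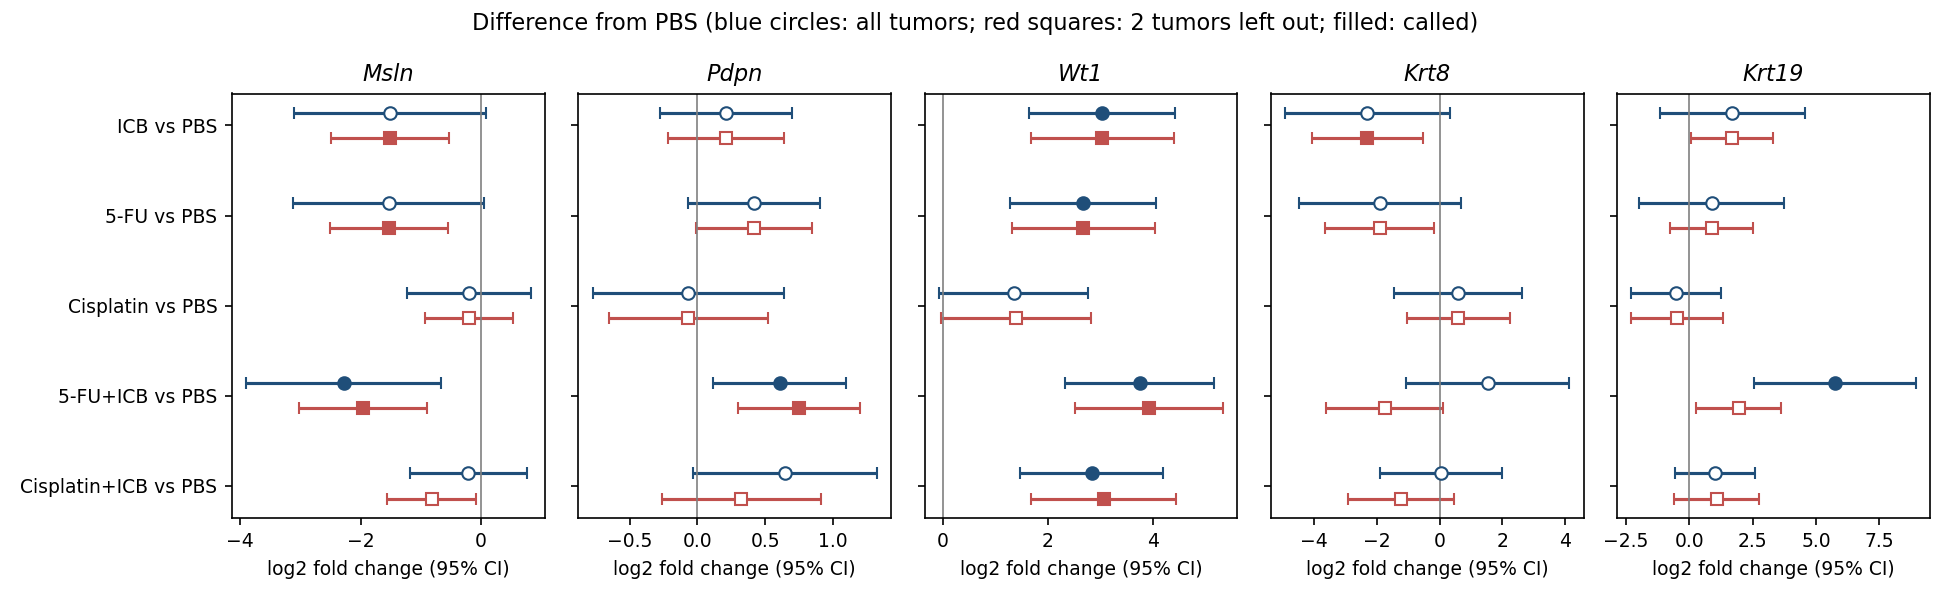
Log2 fold change of the 5 tested genes against PBS (horizontal axis, with the 95% confidence interval) in the 5 treated groups (vertical axis). Blue circles use all tumors, red squares leave out 5-FU+ICB replicate 5 and Cisplatin+ICB replicate 1, and filled symbols were called. Wt1 was called in 4 of the 5 groups in both fits, and Krt8 in 5-FU+ICB changed sign from 1.54 to -1.75.

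The combinations were then set against their parts. In 5-FU+ICB against ICB, 0 of 5 members were called by edgeR (0.229% of genes), 2 had an unadjusted p under 0.05 (Krt8 and Krt19, against 10.9% of genes), and DESeq2 called Krt18 among 327 of 19475 genes. Without 5-FU+ICB replicate 5 the log2 fold change against ICB went from 3.83 to 0.55 for Krt8 and from 4.05 to 0.25 for Krt19. In 5-FU+ICB against 5-FU, 0 were called (0.0112% of genes), 2 had an unadjusted p under 0.05 (Krt8 and Krt19, against 16.6% of genes), and DESeq2 called Krt18 among 539 of 18134 genes. Without that tumor these went from 3.44 to 0.16 and from 4.87 to 1.07. Msln differed by -0.77, with a 95% interval from -2.28 to 0.74, between 5-FU+ICB and ICB. In Cisplatin+ICB against ICB, 0 were called (0% of genes, of which 2839, or 15.9%, had an unadjusted p under 0.05 and 52 were called by DESeq2). Msln, at 1.30 with an interval from 0.37 to 2.23, and Krt8, at 2.37, had an unadjusted p under 0.05 there, and DESeq2 called 0 members. Without Cisplatin+ICB replicate 1 they were at 0.67 and 1.04, and neither had an unadjusted p under 0.05.
In Cisplatin+ICB against Cisplatin, 0 were called (0% of genes, with 2530, or 14.2%, at an unadjusted p under 0.05 and 783 called by DESeq2). Wt1, at 1.49 with an interval from 0.27 to 2.70, and Pdpn, at 0.71, had an unadjusted p under 0.05, and DESeq2 called 0 members. Without that tumor Wt1 was at 1.68, Pdpn was at 0.39 (unadjusted p = 0.178) and Krt8 went from -0.52 to -1.84 (unadjusted p = 0.0357). The change with chemotherapy was also compared with and without ICB. For 5-FU, 0 members were called (0.0893% of genes), Wt1 and Krt8 had an unadjusted p under 0.05 (against 23.9% of genes), and DESeq2 called Krt18 among 1542 of 16114 genes. That difference went from 5.74 to 2.45 (unadjusted p = 0.0532) for Krt8 without 5-FU+ICB replicate 5, from 3.17 to -0.63 for Krt19 and from -1.96 to -1.78 for Wt1. For cisplatin, 0 were called (0% of genes, with 1273, or 7.14%, at an unadjusted p under 0.05 and 1 by DESeq2), Msln had an unadjusted p of 0.0352, and DESeq2 called 0 members. Without Cisplatin+ICB replicate 1 Msln was at 0.87 (unadjusted p = 0.0849).
Between the chemotherapies, 0 members were called (0.362% of genes), Wt1 and Krt8 had an unadjusted p under 0.05 (against 15.5% of genes), and DESeq2 called 0 members and 663 of 18067 genes. Msln did not overlap between 5-FU and Cisplatin, which held for 12.5% of genes, and its difference of -1.32 ± 0.71 (adjusted p = 0.372) was not called with all tumors. It was called with only those groups in the fit and without the 2 tumors that stood apart (-1.32, adjusted p = 0.0459), alone or with ICB replicate 2 also left out. Between the combinations, 0 members were called by edgeR (0.297% of genes), Msln (-2.05) and Krt19 (4.68) had an unadjusted p under 0.05 (against 25.7% of genes), and DESeq2 called Msln, Krt18 and Krt19 among 1620 of 19470 genes. Without 5-FU+ICB replicate 5 Krt19 was at 0.88, Msln at -1.73 and Krt8 at -1.82, where it was at 1.44 with all tumors, and without both tumors Msln was at -1.13. Over all 6 groups at once, 2 of 5 members differed, against 31% of genes. They were Wt1 (adjusted p = 0.00152) and Krt19 (adjusted p = 0.000596), the latter not without 5-FU+ICB replicate 5 (adjusted p = 0.140). Without the 2 tumors the adjusted p was 0.00209 for Msln, 0.0137 for Krt8, 0.0490 for Pdpn and 0.110 for Krt19.

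Related genes were described by lists. Of the 10 other mesothelial genes, 5 were tested in ICB against PBS, of which 1 was higher and 1 lower (19% and 18.8% of all genes), with a median log2 fold change of 1.02 against -0.03 over all genes. The summed CPM of the 10 was nonetheless lower in ICB, at 202 to 385, than in PBS, at 608 to 668. It ran from 365 to 688 in 5-FU, 618 to 729 in Cisplatin, 52.5 to 762 in 5-FU+ICB and 328 to 511 in Cisplatin+ICB. Aldh1a2 was higher in ICB (3.31), 5-FU (2.50), 5-FU+ICB (4.14) and Cisplatin+ICB (2.86), the groups in which Wt1 was called. Efemp1 was lower in ICB at -1.30 ± 0.50 (adjusted p = 0.0439), not called without ICB replicate 2 (-1.19, adjusted p = 0.0965), and was not called in 5-FU, at -0.19. Gpm6a, a membrane glycoprotein of neurons and mesothelium, was higher in 5-FU+ICB by 5.02 (adjusted p = 0.0109), and not called without 5-FU+ICB replicate 5 (2.68, adjusted p = 0.0651), which had 7.60 CPM against 0.717 in the next highest tumor. In 5-FU+ICB 2 of 5 were called higher, Gpm6a and Aldh1a2 (21.9% of all genes), and without replicate 5 again 2, Aldh1a2 and Calb2 (1.94, 18.8% of all genes). Of 13 other simple-epithelial keratin and junction genes, 11 were tested. Cdh1, E-cadherin, was higher in ICB by 1.17 and the desmosomal gene Dsp by 4.34. ICB replicate 2 was the highest of all tumors in both, and without it neither was called, at 0.51 and 0.63. In 5-FU+ICB the desmosomal cadherin Dsg2 was higher by 6.14 (2.61 without replicate 5, still called) and Krt80 was lower at -0.97, and in 5-FU 0 were called. Without 5-FU+ICB replicate 5, 10 of the list were tested, of which 2 were called lower in 5-FU (Krt7 and Krt80, against 14.6% of all genes) and 3 higher and 1 lower in ICB, where Dsg2 and Krt7 joined Cdh1 and Dsp (20.6% of all genes higher and 21% lower). The genes named next for partners of podoplanin and of WT1 were chosen after their values were seen. Among partners of podoplanin, 8 of 8 were tested. Cd44, a hyaluronan receptor, was higher and Cd9, a tetraspanin, lower in ICB, in 5-FU and in 5-FU+ICB, the latter at 0.88 and -1.09. Clec1b, which encodes the platelet receptor CLEC-2 that podoplanin activates, was higher in ICB by 3.58 and in 5-FU+ICB by 2.56. Ccl21a, a lymphatic chemokine, was higher in 5-FU+ICB by 6.59, and not called without replicate 5 (3.26, adjusted p = 0.0796). Among 8 partners and targets of WT1, 3 were higher and 0 lower in 5-FU+ICB (21.9% and 18.7% of all genes), namely Basp1 (1.65), Podxl (1.93) and Sulf1 (2.30), all still called without replicate 5, where Podxl was at 1.13 and Nphs1, a podocyte gene, was called lower at -0.97. In ICB 1 was higher, Basp1 by 2.03, and 1 lower, Nphs1 at -1.05, and without 5-FU+ICB replicate 5 there were 4 higher and 1 lower (20.6% and 21% of all genes). In 5-FU 2 were higher, Sulf1 by 1.51 and Egr1, an immediate early gene, by 1.68, and 1 lower, Wtap at -0.55 (9.98% and 13% of all genes), and without that tumor 3 were higher and 2 lower (12.3% and 14.6%). In Cisplatin 0 genes of any list were called, as of all genes.

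Markers of other cells moved in the same tumors, and their part in the results above was not tested. In whole tumors, fewer cells of a type and less RNA per cell cannot be told apart. Summed leukocyte markers (12 genes) ran from 1601 to 4500.2 CPM in PBS and from 4604 to 14127 in ICB, and 9 of 12 were called higher in ICB (19% of all genes), among them Lyz2 by 2.01 and Csf1r by 1.68. Of the same 12, 5 were called higher in 5-FU (9.98% of all genes), 6 in 5-FU+ICB (21.9%) and 6 in Cisplatin+ICB (4.7%; without Cisplatin+ICB replicate 1, 7 against 18.2%). Lymphatic endothelium genes (6) ran from 4.83 to 6.51 CPM in PBS and from 18.9 to 354 in 5-FU+ICB, and 6 of 6 were called higher there (21.9% of all genes), among them Lyve1 by 3.70 and Flt4 by 2.02. Without replicate 5, 3 of 6 were called (18.8% of all genes), with Lyve1 at 3.50 and Flt4 not called at 1.05. In ICB and in 5-FU 2 of 6 were called higher, and in Cisplatin+ICB 1 of 6 (3 of 6 without its replicate 1). Blood endothelium genes (6) ran from 70.8 to 132 CPM in PBS and from 163 to 688 in 5-FU+ICB, again 6 of 6 higher, among them Pecam1 by 2.02 and Cdh5 by 1.44, and 5 of 6 without replicate 5. In ICB and in 5-FU 3 of 6 were called higher, and in Cisplatin+ICB 0 of 6 by edgeR (1 at an unadjusted p under 0.05, and 2 called without its replicate 1). Proliferation genes (8) were lower in 5 of 8 in ICB, 4 of 8 in 5-FU and 5 of 8 in 5-FU+ICB (18.8%, 13% and 18.7% of all genes were called lower), while the most abundant, Top2a and Mki67, were not called in these groups. In Cisplatin+ICB 0 of 8 were called lower (1.4% of all genes), and 5 of 8 without its replicate 1 (17.1%). Mesenchymal genes (13, led by Col3a1 and Vim) were higher in 5 of 13 in 5-FU (9.98% of all genes) and 3 of 13 in 5-FU+ICB, near the 21.9% of all genes. Of the 8 skin keratinocyte genes tested, 2 were higher in ICB, among them Sfn by 2.71, and Trp63 was not called. Their sum was 616 CPM in ICB replicate 2 and 2.04 to 16.5 CPM in the other ICB tumors, and without that tumor 0 of 7 were called and Sfn was at 0.25. Of 5 adipocyte genes (led by Cidec and Adipoq) 1 was higher in 5-FU+ICB, and 0 without replicate 5. Of 8 skeletal muscle genes (led by Acta1 and Ckm) 0 were called in any group against PBS by edgeR (1 had an unadjusted p under 0.05, in 5-FU+ICB), with median log2 fold changes of 2.41 in ICB, 2.74 in 5-FU and 3.53 in 5-FU+ICB (1.80 without replicate 5). Their sum was 108 to 180 CPM in PBS and 2.51 to 4948 CPM in 5-FU+ICB, highest in replicate 5.
Across the 28 tumors the log2 CPM of Msln and the log2 sum of blood endothelium genes had a Pearson's r of -0.88 and a Spearman's rho of -0.94 (permutation p = 1e-05 each, the smallest that 100000 resamples give, adjusted p = 0.0002 over 60 relations). Without the 2 tumors farthest from the median of the blood endothelium sum the r was -0.94, and for the residuals from group means it was -0.80. The r of Msln was -0.92 with lymphatic endothelium genes (rho -0.89), 0.78 with proliferation genes (rho 0.79) and -0.51 with leukocyte genes (rho -0.63), with permutation adjusted p = 0.0002, 0.0002 and 0.0054 for r. Without the 2 tumors farthest from the median of the sum of each list these were -0.87, 0.78 and -0.54. With skeletal muscle genes the r was -0.51 and the rho -0.60 (permutation adjusted p = 0.0266 and 0.00459), and the r -0.58 without the 2 tumors farthest from the median of the muscle sum. With the other mesothelial genes the r of Msln was 0.84 and the rho 0.65 (permutation adjusted p = 0.00036 and 0.001725). For the residuals from group means that r was 0.94. Wt1 had an r of 0.67 and a rho of 0.82 with lymphatic endothelium genes (permutation adjusted p = 0.000771 and 0.0002), and for the residuals from group means an r of 0.29 with all tumors and 0.63 without the 2 that stood apart.

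**Figure D3:**
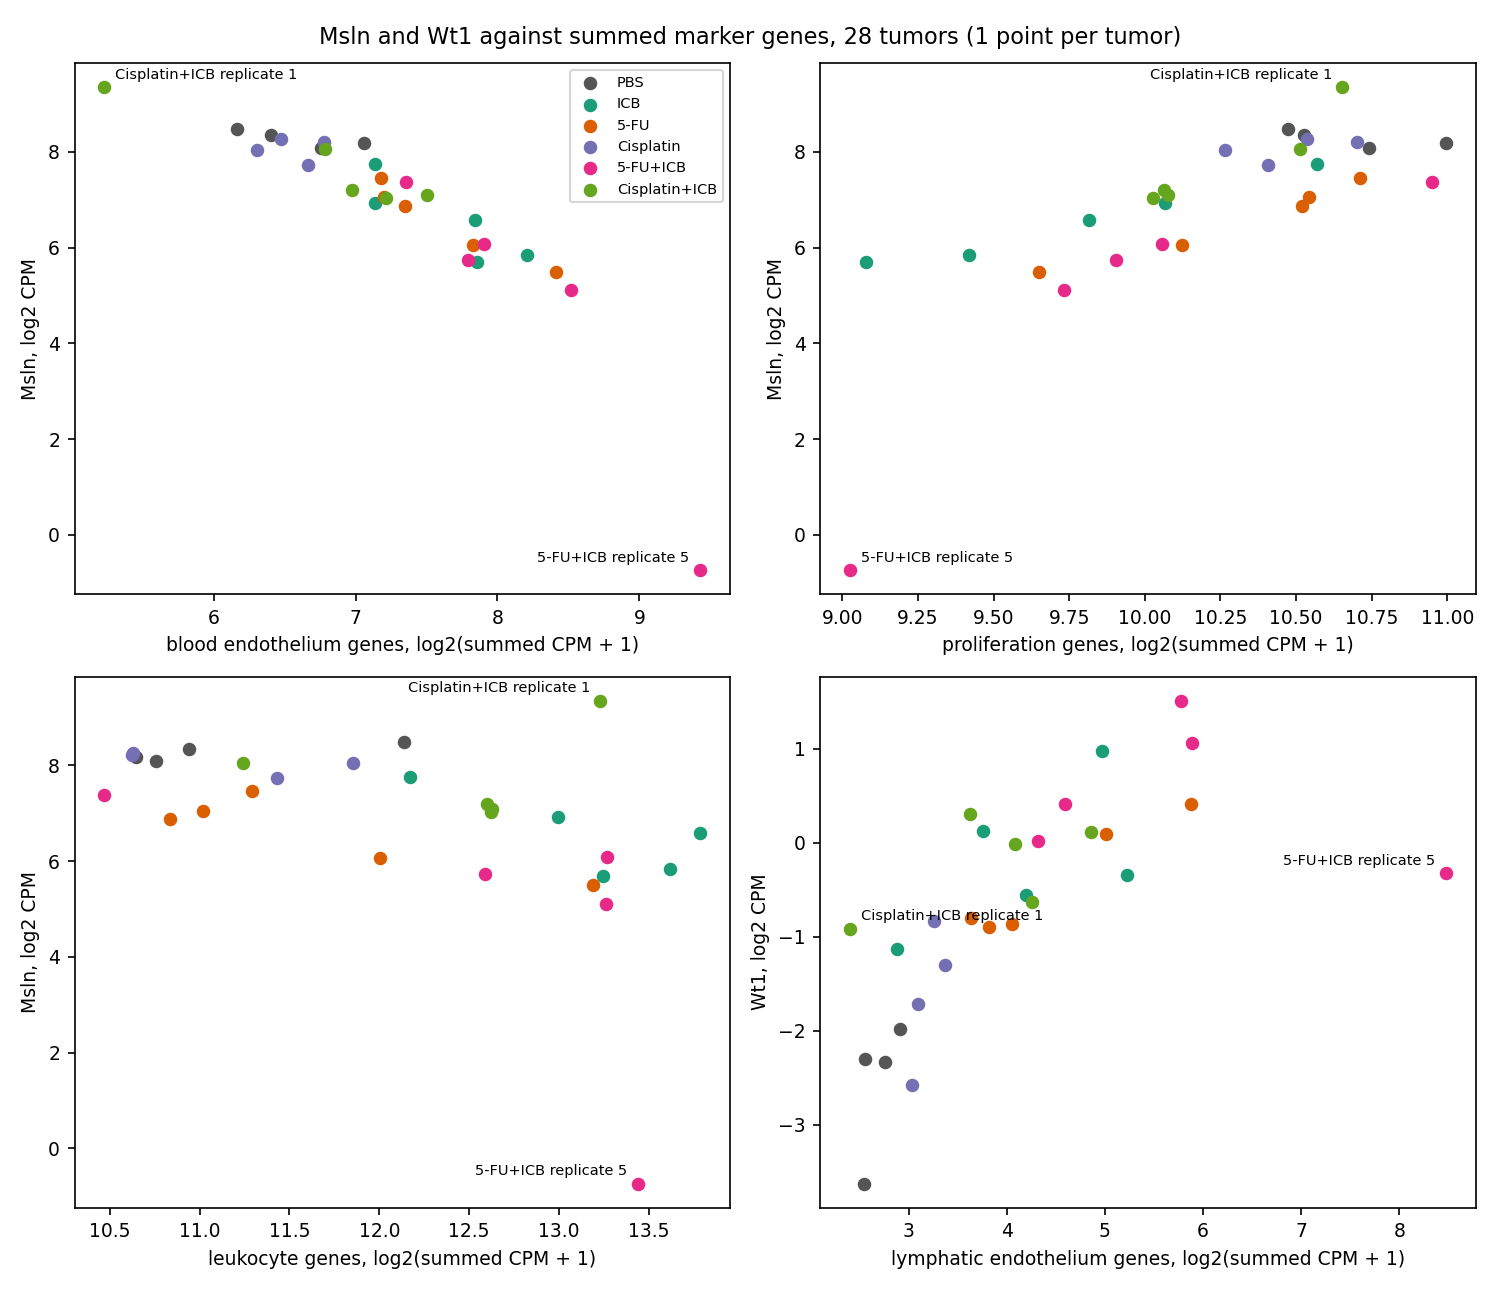
Msln (log2 CPM) against the log2 summed CPM of blood endothelium, proliferation and leukocyte genes, and Wt1 against lymphatic endothelium genes, 1 point per tumor, colored by group. Msln was lower where endothelial genes were higher (r = -0.88), with Cisplatin+ICB replicate 1 highest and 5-FU+ICB replicate 5 lowest in Msln.

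5-FU+ICB replicate 5 also differed from the rest of its group in epithelial genes. It had 24.3 CPM of Epcam, an adhesion molecule of simple epithelia, where the rest of the group had 0.521 to 2.10. It also had 5.50 CPM of Cldn3, 5.75 of Cldn4 and 10.7 of Krt7, with Efemp1 at 27.3 CPM against 296 to 758. These values stand beside the high Krt8, Krt18 and Krt19 and the low Msln of that tumor, and their part in the keratin results was not tested. ICB replicate 2 held skin keratins, with Krt5 at 180 CPM and Krt14 at 240 CPM, yet Krt8 at 0 counts.

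**Figure D4:**
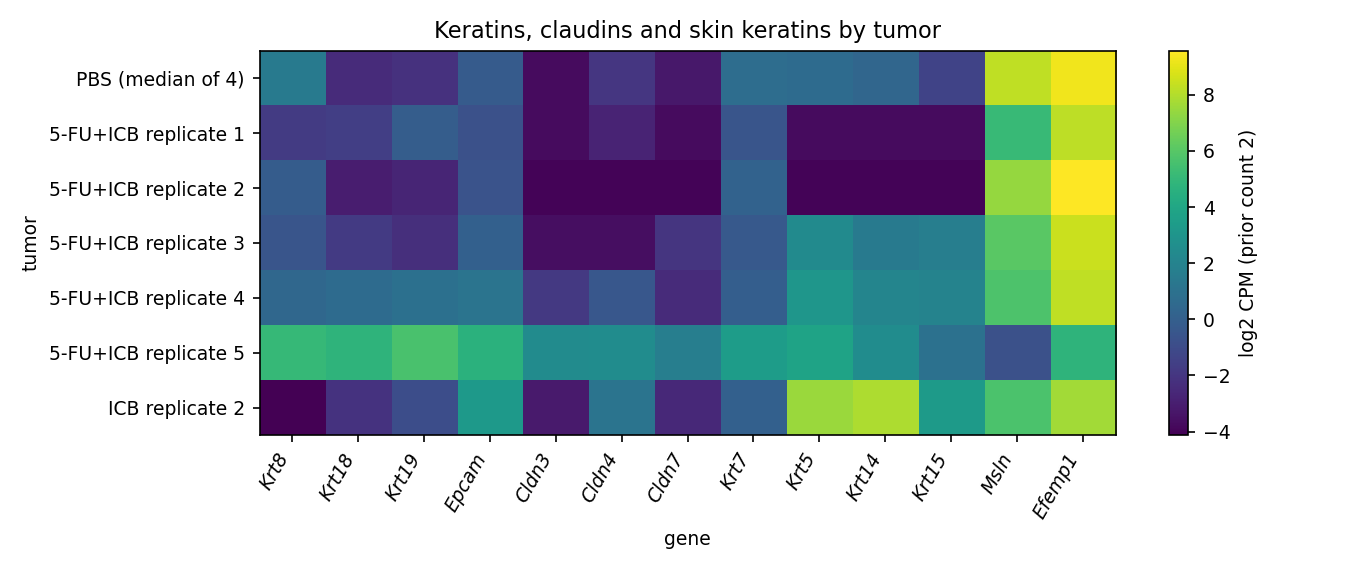
Log2 CPM (color, prior count 2) of keratins, epithelial junction genes, Msln and Efemp1 (horizontal axis) in the median PBS tumor, the 5 5-FU+ICB tumors and ICB replicate 2 (vertical axis). Replicate 5 of 5-FU+ICB had high Krt8, Krt18, Krt19 and Epcam with low Msln and Efemp1, and ICB replicate 2 had high Krt5 and Krt14.

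Among the 28 pairs of the 8 genes, 7 had a permutation adjusted p under 0.05 for r over the 28 tumors, a count that moved widely under the other settings given at the end. Msln and Wt1 had an r of -0.48 (permutation p = 0.01005, adjusted p = 0.0474) and a rho of -0.80 (permutation p = 1e-05, adjusted p = 0.00028). Without the 2 tumors farthest from the median of Msln the r was -0.81, and for the residuals from group means it was -0.05 with all tumors and -0.62 without those 2. Msln and Krt8 had an r of -0.01 with all tumors and 0.74 without the same 2, with a rho of 0.55 over all tumors (permutation adjusted p = 0.0138). Krt18 and Krt19 had an r of 0.87 and a rho of 0.67 (permutation adjusted p = 0.00028 and 0.00322), and 0.56 without the 2 tumors farthest from the median of Krt18. Msln had an r of -0.84 with Krt18 and -0.82 with Krt19, and -0.56 and -0.61 without the 2 farthest. The remaining 3 were Wt1 with Pdpn (0.51), Wt1 with Krt8 (-0.47) and Upk3b with Krt8 (0.47), the last over levels of Upk3b that lie under the floor.

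**Figure D5:**
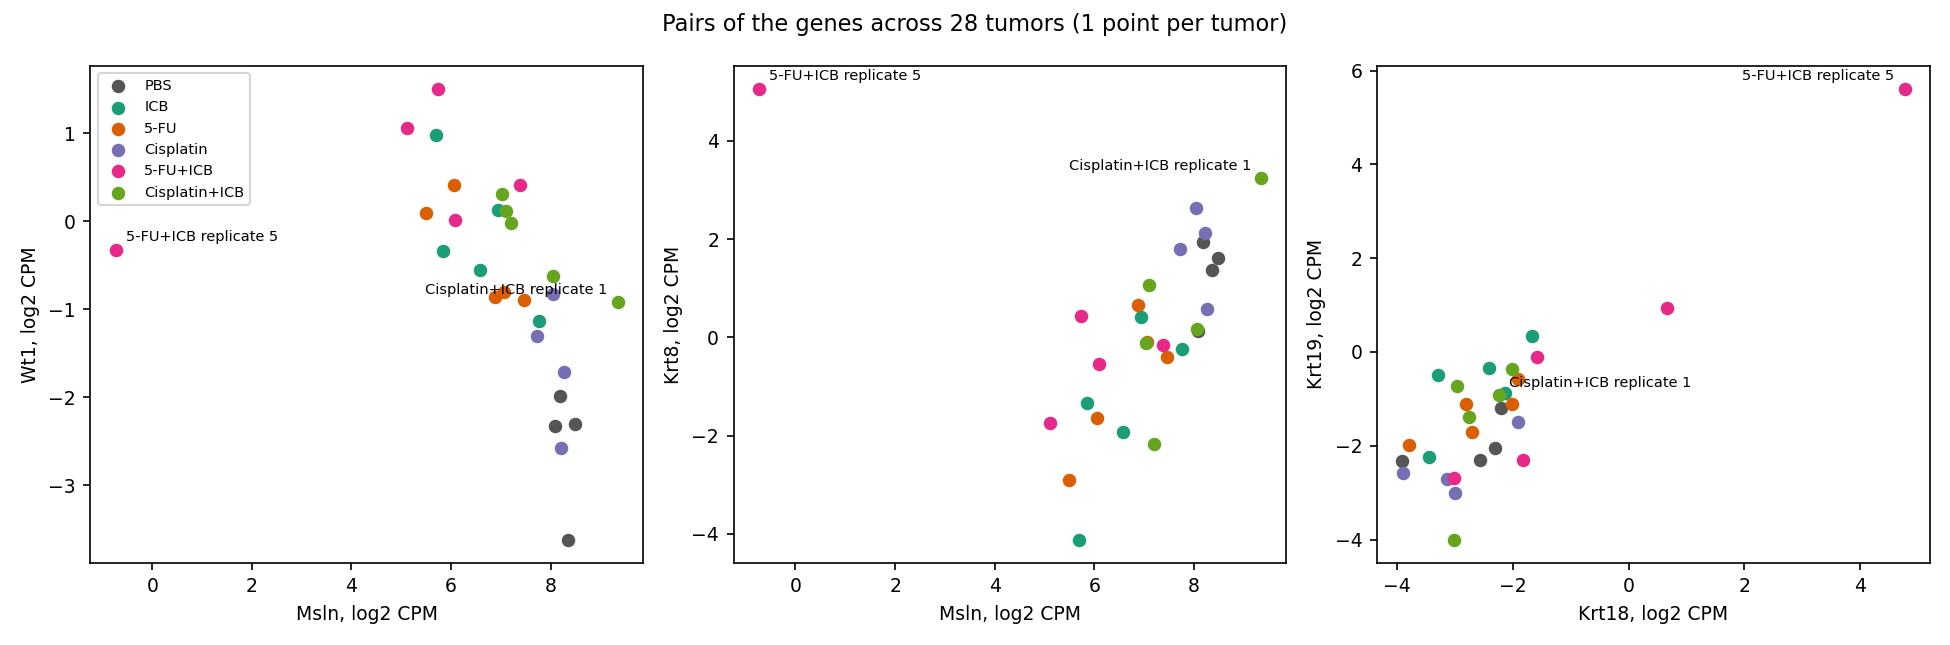
Log2 CPM of Wt1 and of Krt8 against Msln, and of Krt19 against Krt18, 1 point per tumor, colored by group. Msln and Krt8 had an r of -0.01 with all tumors and 0.74 once the 2 tumors that stood apart were left out.

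The genes most like each member over the 28 tumors were ranked by r among 12444 or 12445 protein-coding genes with a mean of at least 50 counts, and given with no test. For Msln they were Olfr784, Baiap2l1 and Rhox5, each with an r of 0.97 and an r of 0.97 to 0.98 for the residuals from group means. Without the 2 tumors that stood apart their r was 0.91, 0.97 and 0.90. For Wt1 they were Slc10a6 (0.88), Cxcl5 (0.87) and Ms4a4d (0.87), with 0.67, 0.63 and 0.59 for the residuals. For Pdpn they were Casp4 (0.85), Ecscr (0.81) and Ube2l6 (0.81). For Krt8 they were 2610318N02Rik (0.81), Phf6 (0.75) and Wdr76 (0.74). For Krt18, Kcne4 (0.86), Fcgbp (0.84) and Arhgap29 (0.84) led, and for Krt19 Rgs4 (0.86), Ppp2r5a (0.83) and Galnt18 (0.83). The 3 genes most like Krt18 and Krt19 were each highest in 5-FU+ICB replicate 5, and without the 2 tumors their r fell to between 0.47 and 0.68. Upk3b and Lrrn4 were too near the floor for such a ranking to be read.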

How the data were processed

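Whole-tumor RNA was sequenced as 100 bp single-end reads. The authors deposited estimated counts per gene from kallisto 0.46.0 on GRCm38, summed to genes by tximport, in 2 matrices that share 9 tumors. Of the deposited estimated counts 23.7% were not whole, and they were rounded. Groups were taken from the labels, which do not state that tumors of a group came from separate experiments or litters, so p-values measure the spread between these tumors. Genes were filtered by group (filterByExpr), normalised by TMM and tested with edgeR 4.0.16 in R 4.3.3 (17916 and 17819 genes for the 5-FU and cisplatin matrices, 18521 for the joined one), with Benjamini-Hochberg adjustment over all genes tested. Log2 CPM used a prior count of 2. DESeq2 1.42.0, other filters, samples and scalings were alternatives. Correlation p-values came from permutation tests with 100000 resamples. The fits were tested on simulated data. The genes named were the 8 members, the 2 most abundant of each marker list, called mesothelial and keratin genes, and the 3 genes most like each member. Partner genes of podoplanin and WT1, Krt7, Krt80 and Calb2 without 5-FU+ICB replicate 5, and the epithelial and skin genes given for single tumors, were named after their values were seen. Members and lists were chosen with earlier results of these data known, and leaving out 2 or 3 tumors, or 1 of them for the lists, was chosen after seeing the data.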

Additional observations from a re-analysis of the deposited data

Results flagged for a closer look

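In 7 of 41 groups of 4 or 5 tumors, 1 tumor lay far from the others of its group by Dixon's criterion. Independent normal values meet it in about 1 in 20 groups. These are unlogged CPM and the same tumors recur across genes, so that rate cannot be used as the chance rate here. Msln was 654 CPM in Cisplatin+ICB replicate 1, where the nearest tumor of the group had 266 CPM. Krt8 was 9.33 CPM in the same tumor, against 2.04 CPM in the nearest. In 5-FU+ICB replicate 5, Krt8 was 33.4 CPM, Krt18 27.2 CPM and Krt19 48.9 CPM, where the nearest tumors had 1.30, 1.52 and 1.86 CPM. Krt19 was 0.361 CPM in PBS replicate 3 and 0.296 CPM in Cisplatin replicate 4, each with 10 counts, where the floor is 3.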

How the results depend on the processing

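Of 65 comparisons of a member, 7 were called, and all 7 kept their direction in the fits without 1 tumor and under the 10 to 12 other settings that gave each a value. Among these settings, dropping the fold threshold or the adjustment of p changes only the call, so direction was fixed in advance there. Wt1 and Krt19 had no value with at least 10 counts in every tumor, and Krt19 in 5-FU+ICB had none with DESeq2. Besides the fits without 1 tumor, 4 of the 7 lost their call under some setting, namely Msln in 5-FU+ICB with only the groups compared (adjusted p = 0.0824), Pdpn there with only the groups compared (0.103) and with all 28 tumors joined (0.106), Krt19 there with the replicate block (0.0894) and without 2 or 3 tumors (0.0576 and 0.0660), and Wt1 in Cisplatin+ICB with the block (0.0735) and with only the groups compared (0.0972). Of the 58 not called, 22 were called under some alternative, many of them only by unadjusted p, which drops the adjustment over all genes tested. The counts below are members called, with the count in the report first. Where the share of all genes called under that setting is not given, a moved count was not set against it. With DESeq2 the counts went from 0 to 1 in 5-FU+ICB against ICB, against 5-FU and in the 5-FU interaction. They went from 0 to 3 between the combinations (1620 of 19470 genes) and from 2 to 5 over all groups (8170 of 22982 genes). In 5-FU+ICB against PBS DESeq2 called Krt18 and gave Krt19 no adjusted p-value. With no filter the combinations went from 0 to 1. With at least 10 counts in every tumor, which leaves fewer genes tested, ICB, 5-FU and Cisplatin+ICB went from 1 to 0, 5-FU+ICB from 4 to 2 and all groups from 2 to 0. With only the groups compared in the fit, ICB went to 4, 5-FU to 2, 5-FU+ICB to 2, Cisplatin+ICB to 0 and 5-FU against Cisplatin from 0 to 1. In the cisplatin matrix ICB went to 2. By unadjusted p, 2 were past the threshold in both 5-FU+ICB contrasts with single agents, in both such Cisplatin+ICB contrasts, in the 5-FU interaction, between the chemotherapies and between the combinations, 1 in the cisplatin interaction and 4 over all groups. Without 2 tumors that stood apart ICB went to 3, 5-FU to 2, 5-FU against Cisplatin to 1 and all groups to 4, and 5-FU+ICB fell from 4 to 3. In that fit of the 5-FU matrix 20.6% of all genes were called higher and 21% lower in ICB. The shares were 12.3% and 14.6% in 5-FU and 18.8% and 18% in 5-FU+ICB. Without 3 (also ICB replicate 2) ICB, 5-FU, 5-FU against Cisplatin and all groups went to 3, 3, 2 and 4, 5-FU+ICB to 3, Cisplatin+ICB to 2 and Cisplatin+ICB against Cisplatin to 1. Leaving out each tumor in turn gave 1 to 3 in ICB, 1 to 2 in 5-FU, 2 to 4 in 5-FU+ICB, 0 to 1 in 5-FU+ICB against 5-FU and in Cisplatin+ICB, 0 to 2 between the combinations and 2 to 4 over all groups. The causes of these moves were not tested.

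Replicate numbers did not pair the tumors. Deviations from group means had a median correlation of -0.0186 over 66 same-numbered pairs, of which 21 were over 0.1, and of 0.0072 over 260 others. With the replicate number as a block, Cisplatin+ICB went from 1 to 0, 5-FU+ICB from 4 to 3 and all groups from 2 to 1.

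Of 28 correlations between members, 7 passed. With a prior count of 0.5 it was 3, with DESeq2 size factors 4, without the PBS, ICB or Cisplatin group 3, without the 5-FU or 5-FU+ICB group 4, and without the 2 tumors 12. Depth limits Wt1, Krt18, Krt19, Lrrn4 and Upk3b, which had few counts in most tumors.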
